A study of Mus musculus with 8 samples.

Results

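The transcripts described here belong to 10 genes that read or carry the lactogen and serotonin signals of the islet: Prlr, Jak2, Stat5a, Stat5b, Socs2, Cish, Tph1, Tph2, Ddc and Htr2b. They were taken as a list of gene names, and all 10 were matched among the 55487 Ensembl gene identifiers of the series. RNA sequencing was done on pancreatic islets that were picked by hand from C57BL/6J mice. The comparison was between 5 libraries with an intact gene for insulin-degrading enzyme (Ide+/+, replicates 1 to 5) and 3 libraries that lacked it (Ide-/-, replicates 1 to 3). Both genotypes were fed the D12492 diet, with 60 kcal% fat, for 2 weeks from 10 weeks of age, and the labels give all animals as female. The labels do not say how the Ide-/- allele was made, whether the Ide+/+ mice were littermates, or how many animals an islet sample came from. No library from islets of mice on a control diet was compared here.

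Prolactin and the placental lactogens bind the prolactin receptor, Prlr, on the beta cell. The receptor has no kinase of its own and works through the bound kinase JAK2, which phosphorylates STAT5A and STAT5B. These transcription factors then enter the nucleus and switch on target genes, among them Socs2 and Cish, whose products damp the same signal. In islets of pregnant mice the pathway also turns on Tph1, the enzyme that makes the serotonin precursor, and serotonin made by the beta cell acts back on it through the receptor HTR2B. Ddc turns the precursor into serotonin and also makes dopamine.

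STAT5 dimers are known to bind the palindrome TTCNNNGAA, and the upstream sequence of the receptor gene is shown because it held the only match to these letters among 15 windows of 9 of the genes. RefSeq (GRCm38.p6) gave promoter windows for 9 of the 10 genes, all but Socs2, with 15 windows in all, and the 250 bases before each annotated start were searched on both strands, which read the same for this motif. The letters TTCNNNGAA were found in 1 of the 15 windows, against 7.02% of 32851 windows of the same length over all RefSeq genes. The match lay in the middle of the 3 Prlr windows, where TTCTAGGAA (capitals) began 110 bases before the annotated start. A match is a description of the letters and was not shown to be a binding site here, and no data on binding or on start site use bear on it.
Prlr window furthest upstream, chr15:10176988-10177237, plus strand: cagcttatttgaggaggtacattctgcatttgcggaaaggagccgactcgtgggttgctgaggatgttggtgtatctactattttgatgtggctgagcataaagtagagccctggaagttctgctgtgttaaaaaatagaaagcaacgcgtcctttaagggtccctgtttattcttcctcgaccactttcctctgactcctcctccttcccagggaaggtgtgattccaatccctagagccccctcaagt
Prlr middle window, chr15:10223656-10223905, plus strand: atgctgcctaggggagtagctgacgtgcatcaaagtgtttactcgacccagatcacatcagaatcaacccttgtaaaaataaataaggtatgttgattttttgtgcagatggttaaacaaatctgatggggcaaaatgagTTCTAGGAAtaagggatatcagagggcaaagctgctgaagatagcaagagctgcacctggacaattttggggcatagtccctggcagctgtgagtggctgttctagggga
Prlr window furthest downstream, chr15:10293401-10293650, plus strand: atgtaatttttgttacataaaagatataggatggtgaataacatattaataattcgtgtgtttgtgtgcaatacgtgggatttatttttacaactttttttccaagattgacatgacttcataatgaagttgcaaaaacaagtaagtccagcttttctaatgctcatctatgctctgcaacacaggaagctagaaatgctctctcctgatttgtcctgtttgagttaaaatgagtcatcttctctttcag

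Prlr (ENSMUSG00000005268) spans chr15:10177238-10349180 on the plus strand of GRCm38, with 12 annotated transcripts (GENCODE M21). Jak2 (ENSMUSG00000024789) lies at chr19:29251828-29313080 on the plus strand, 7.96 Mb from Ide itself (ENSMUSG00000056999, chr19:37268743-37337852, minus strand). Stat5a (ENSMUSG00000004043, chr11:100859351-100885169, plus strand) and Stat5b (ENSMUSG00000020919, chr11:100780731-100850724, minus strand) start 8627 bases apart and point away from each other. Socs2 (ENSMUSG00000020027) lies at chr10:95385362-95417180 on the minus strand and Cish (ENSMUSG00000032578) at chr9:107296026-107302784 on the plus strand. Tph1 (ENSMUSG00000040046) lies at chr7:46644641-46672537, Tph2 (ENSMUSG00000006764) at chr10:115078641-115185022, Ddc (ENSMUSG00000020182) at chr11:11814101-11898144 and Htr2b (ENSMUSG00000026228) at chr1:86099026-86111970, all on the minus strand.

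Levels are given in CPM, counts scaled to library size by TMM, which sets libraries to a common reference by the bulk of their genes. The Ide+/+ libraries held 19277303 to 33371662 counts and the shallower Ide-/- libraries 7143424 to 17445976. Ide was near absent where it should be, with 19.5 to 39.2 CPM in Ide+/+ libraries and 0.167 to 0.367 CPM in Ide-/- libraries. Ide+/+ replicate 1 stood apart: it had 692 counts of Xist, made from the silenced X chromosome of females, against at most 11 in any other library, and 0 counts of the Y-linked gene Ddx3y, against 503 to 2139 elsewhere. The other 7 libraries thus went against their female label, and the fold changes below are given with and without Ide+/+ replicate 1. Ide+/+ replicates 2 and 3 were unusually alike, with a chi-square per gene of 5.6 between them against 106 to 681.9 for other Ide+/+ pairs. That is still above sampling noise, but does not show that they came from separate animals. They were kept as separate samples, as labelled, and counted as 1 sample in an alternative fit. Acinar markers took 23.4% to 40.9% of counts in Ide+/+ libraries and 0.696% to 1.49% in Ide-/- libraries, and 31 of the 32 markers were called lower. Beta cell markers took 1.72% to 7.81% and 13.5% to 21.9%, and 0 of 14 were called in either direction after TMM scaling. In whole islets, fewer cells of a type and less RNA per cell cannot be told apart.

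Over all 8 libraries the 10 genes gave no call. By edgeR's quasi-likelihood test, with p-values adjusted over all 16266 genes tested, 0 of the 8 members that passed the low-count filter differed between genotypes (adjusted p under 0.05), and 0 had an unadjusted p under 0.05. The background was 10.4% of genes called higher in Ide-/- islets and 10.6% called lower. Tph1 and Htr2b did not pass the filter, and their values without it are given below. DESeq2 also called 0 members in either direction, with 10.3% of genes higher and 11.7% lower. Without Ide+/+ replicate 1, Prlr and Socs2 were called higher in Ide-/- islets, 2 of 8 members, and none was called lower, with 13.4% of 16028 genes called higher and 13.3% lower. Both calls were lost when libraries were scaled to beta cell markers, where 1.52% of genes were called higher and 25.7% lower, and when the acinar share entered the model, where 0.0312% were called higher and 0.15% lower.

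**Figure D1:**
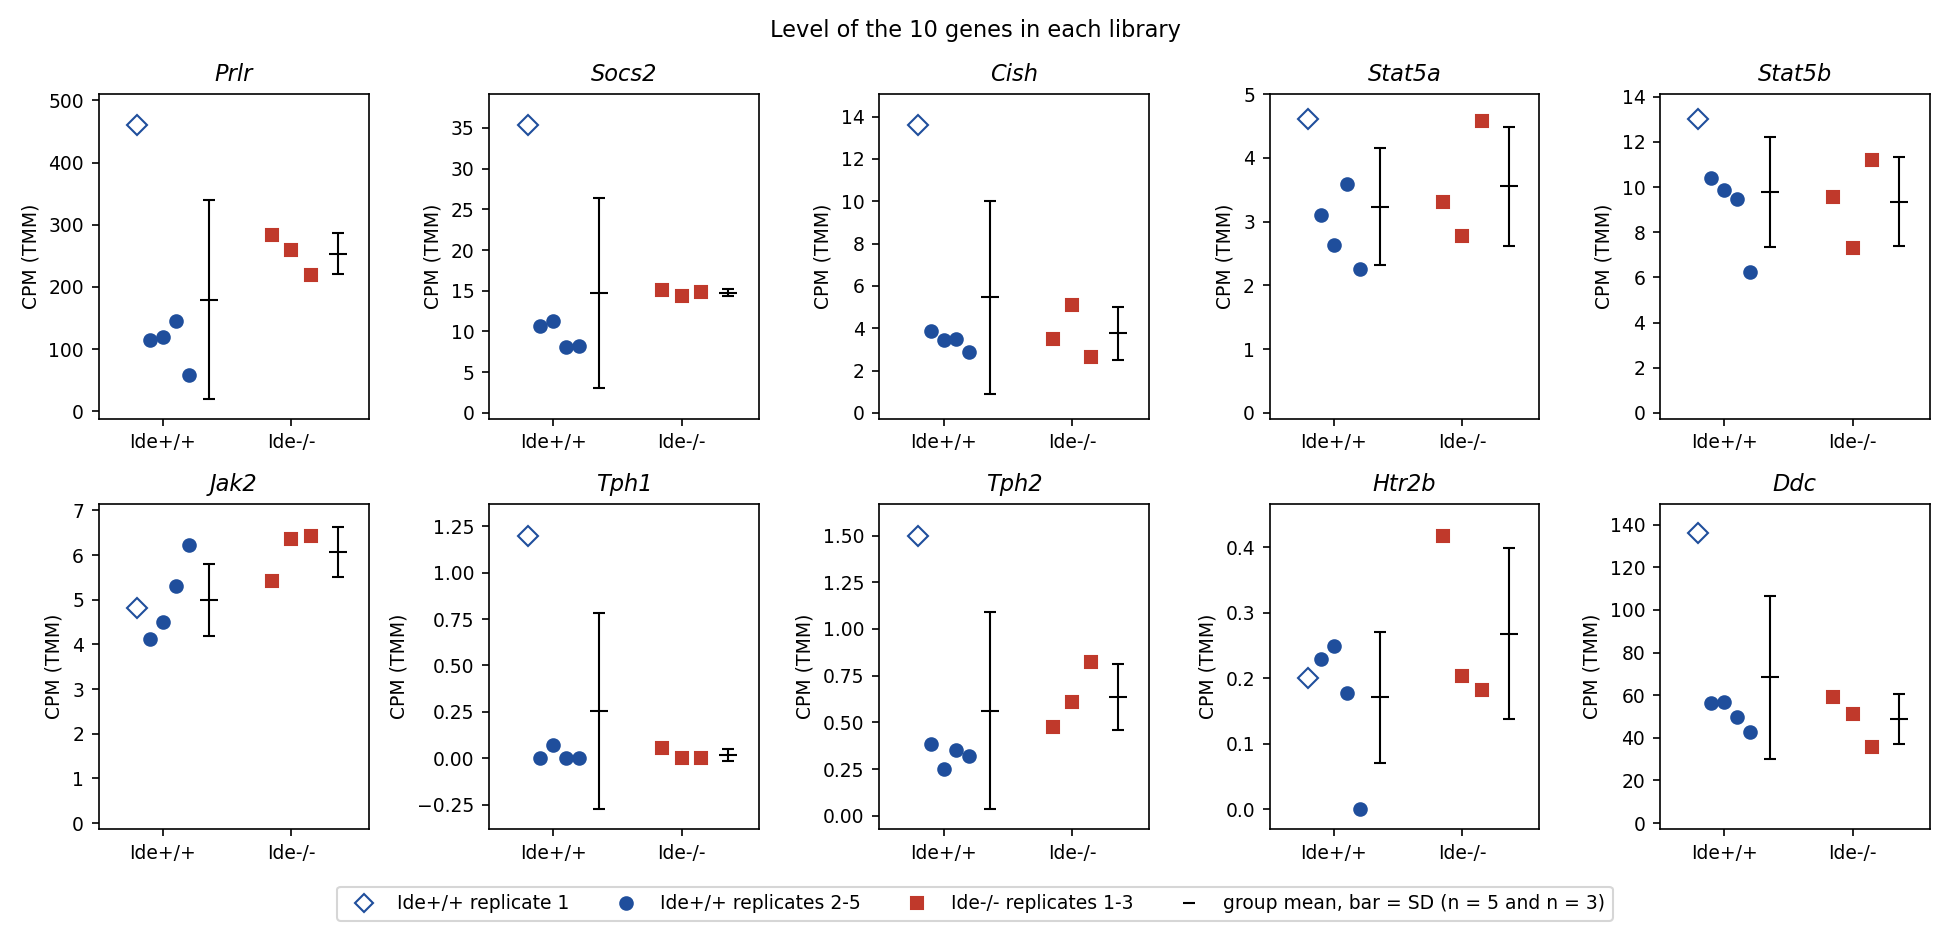
Level of each gene in each library, in CPM after TMM scaling on a linear axis, with Ide+/+ replicate 1 as an open diamond, the other Ide+/+ libraries as circles and Ide-/- libraries as squares; bars are mean ± SD (n = 5 and n = 3). Ide+/+ replicate 1 is the highest library for 8 of the 10 genes, all but Jak2 and Htr2b, and the 3 Ide-/- libraries lie above Ide+/+ replicates 2 to 5 for Prlr, Socs2 and Tph2.

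The receptor itself differed between genotypes once Ide+/+ replicate 1 was left out. Prlr stood at 460 CPM in Ide+/+ replicate 1 and at 114, 119, 145 and 58.6 CPM in Ide+/+ replicates 2 to 5. In the Ide-/- libraries it stood at 283, 259 and 219 CPM. The 3 Ide-/- libraries lay above 4 of the Ide+/+ libraries and below the remaining one, so the groups overlapped only through Ide+/+ replicate 1, which had 4.21 times the mean of the other Ide+/+ libraries. The Ide+/+ mean was 179 ± 160 CPM (SD, n = 5) and the Ide-/- mean 254 ± 32.5 CPM (SD, n = 3). The log2 fold change was 0.50 (SE 0.52, 95% interval −0.63 to 1.63, adjusted p = 0.519, edgeR). Without Ide+/+ replicate 1, the Ide+/+ mean was 109 ± 36.5 CPM (n = 4) and Prlr was 2.31-fold higher in Ide-/- islets (log2 1.21, SE 0.27, 95% interval 0.61 to 1.81, adjusted p = 0.00993, edgeR). Prlr kept a positive sign in every setting run on the 7 libraries, and its adjusted p stayed under 0.05 when any further library was left out (0.0041 to 0.0404, edgeR).

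Prlr is made mainly by beta cells in the islet, and the summed beta cell markers moved with it. The sum stood at 139000 CPM in Ide+/+ replicate 1, 35500 to 74600 CPM in Ide+/+ replicates 2 to 5 and 83900 to 106000 CPM in Ide-/- libraries. Most of its counts came from Ins2, Ins1 and Iapp, so it mainly follows these hormone transcripts. The 14 markers did not all move alike: in 7 libraries their log2 fold changes ran from −0.52 for Ucn3 to 0.72 for Ins1, with a median of 0.04. Per 10000 counts of these markers, Prlr had 33.1 counts in Ide+/+ replicate 1, then 17.5, 17.5, 19.5 and 16.5 in Ide+/+ replicates 2 to 5, and 26.6, 30.9 and 24.7 in the Ide-/- libraries. On that scale too the Ide-/- libraries lay between Ide+/+ replicate 1 and the rest. With libraries scaled to these markers, the log2 fold change of Prlr in 7 libraries was 0.62 (SE 0.38, adjusted p = 0.203, edgeR), while all genes had a median of −0.67 on that scale against 0 with TMM. A model that includes the acinar share gave 0.84 (SE 0.77, adjusted p = 0.615, edgeR) with 7 libraries and 2.92 (SE 1.2, adjusted p = 0.301) with 8.

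Another reference was the summed count of 15 genes of the secretory granule, the compartment that stores hormone in every endocrine cell type. These genes did not all move alike either. With TMM 3 of the 15 were called higher and 0 lower with 8 libraries, and 3 higher and 1 lower with 7. In 7 libraries their log2 fold changes ran from −0.67 for Pcsk1n to 1.89 for Vgf, with a median of −0.08. Per 10000 granule gene counts, Prlr had 571 counts in Ide+/+ replicate 1 and 195, 204, 273 and 144 in Ide+/+ replicates 2 to 5. The Ide-/- libraries had 471, 503 and 481, a narrow band of 485 ± 16.5 (SD, n = 3). Scaled in this way, the log2 fold change in 7 libraries was 1.25 (SE 0.28, adjusted p = 0.0136, edgeR), close to that with TMM, with 8.37% of genes called higher and 7.99% lower. Ide+/+ replicate 1 remained the highest library on the granule scale for 6 of the 10 genes, Prlr, Socs2, Cish, Tph1, Tph2 and Ddc. Among the 8 tested members this held for 5, against 4.31% of all tested genes. In CPM it held for 7 of the 8 tested members, against 26.8% of all tested genes, and this library had the lowest TMM factor, 0.41, of a range up to 2.06.

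**Figure D2:**
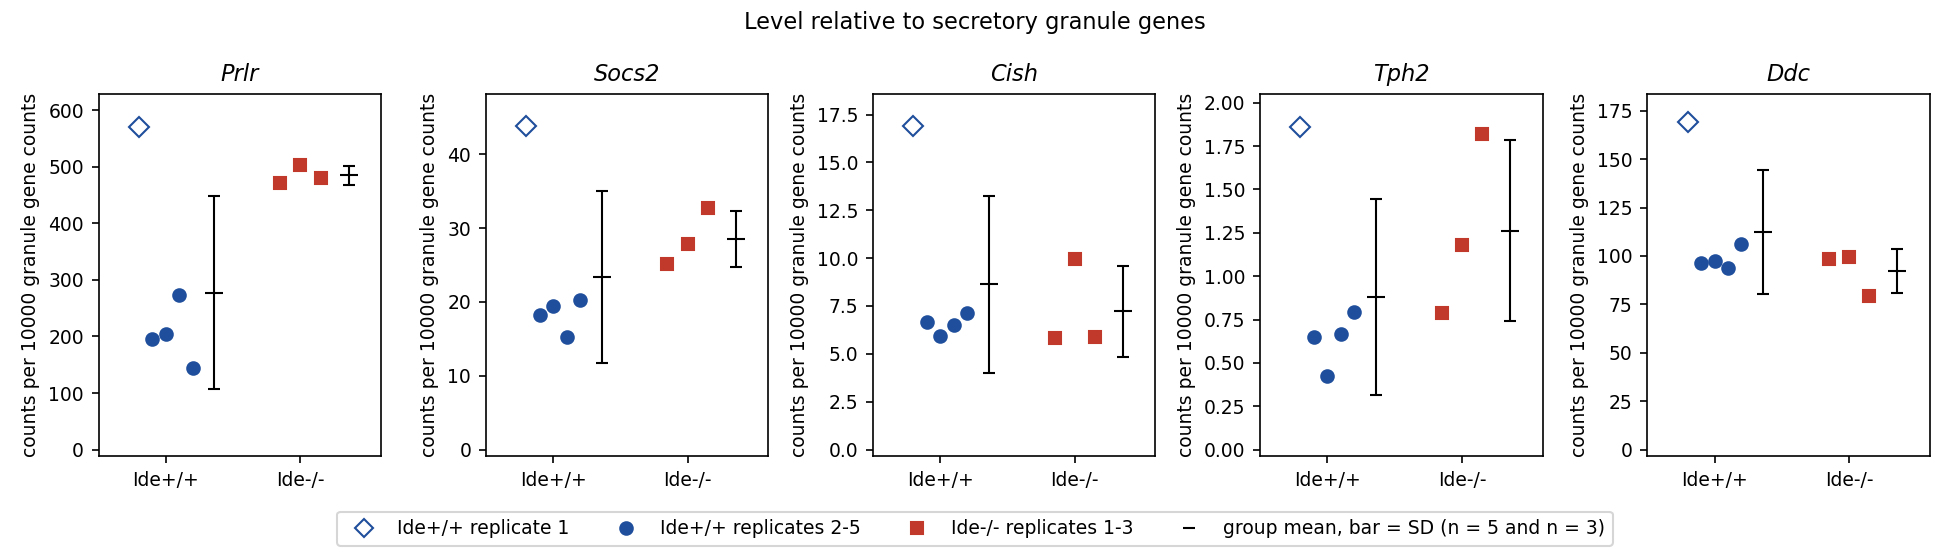
Counts of 5 genes per 10000 counts of 15 secretory granule genes in each library, on linear axes with symbols for Ide+/+ replicate 1, the other Ide+/+ libraries and the Ide-/- libraries; bars are mean ± SD (n = 5 and n = 3). Prlr sits at 471 to 503 in Ide-/- libraries, between Ide+/+ replicate 1 at 571 and the other Ide+/+ libraries at 144 to 273.

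Jak2, the kinase bound to the receptor, stood at 4.81, 4.12, 4.51, 5.30 and 6.22 CPM in the Ide+/+ libraries, against 5.43, 6.35 and 6.42 CPM with Ide-/-. The ranges overlapped, and Ide+/+ replicate 1 lay among the others. The log2 fold change was 0.29 (SE 0.20, 95% interval −0.15 to 0.73, adjusted p = 0.330, edgeR) with 8 libraries and 0.28 (adjusted p = 0.291) with 7. The interval leaves room for a rise of up to 0.73 on the log2 scale.

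Stat5a had 4.61, 3.11, 2.63, 3.59 and 2.25 CPM in Ide+/+ libraries and 3.31, 2.77 and 4.58 CPM in Ide-/- libraries. Stat5b was more abundant, at 13, 10.4, 9.85, 9.48 and 6.22 CPM against 9.55, 7.28 and 11.2 CPM. For both factors every Ide-/- library fell within the Ide+/+ range. The log2 fold changes were 0.12 for Stat5a (95% interval −0.49 to 0.74, adjusted p = 0.787, edgeR) and −0.08 for Stat5b (95% interval −0.60 to 0.44, adjusted p = 0.841), and without Ide+/+ replicate 1 they were 0.25 (adjusted p = 0.478) and 0.02 (adjusted p = 0.944). These paralogs are near copies and share reads that RSEM divides by a model, so the split between them is uncertain. Stat5a also overlaps Stat3 on the opposite strand, which had 191 to 1649 counts per library, and without a known strand setting reads of the shared stretch cannot be told apart.

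**Figure D3:**
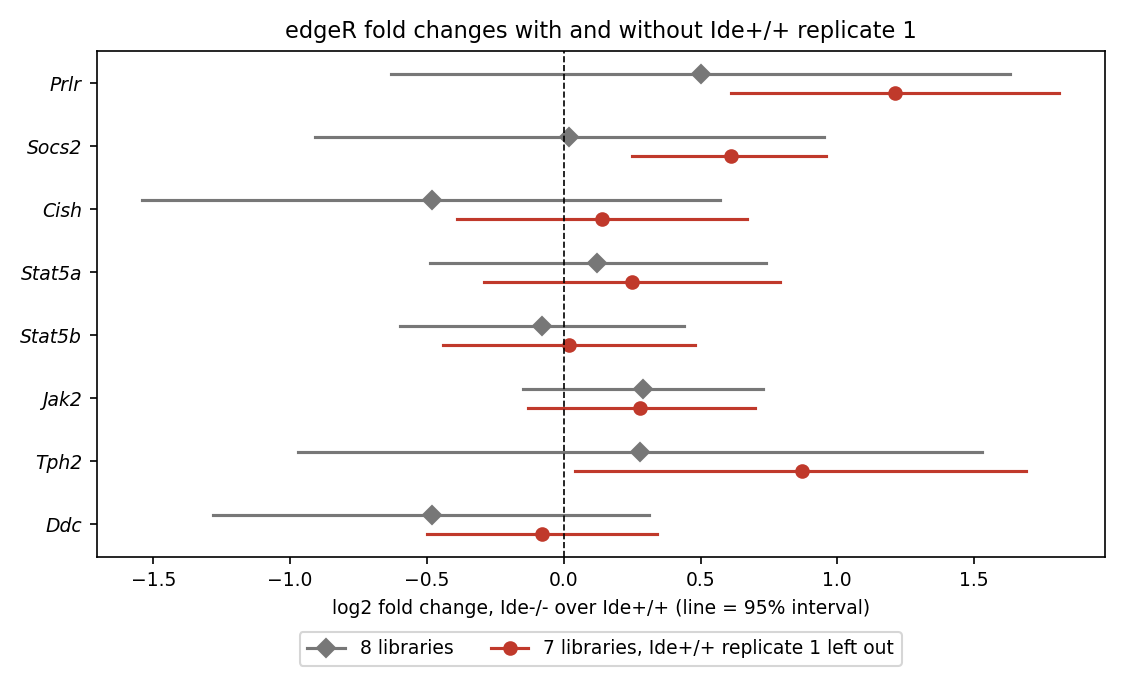
Log2 fold change (Ide-/- over Ide+/+, edgeR with TMM) of the 8 tested genes with 95% intervals as lines, from 8 libraries (grey diamonds) and from 7 without Ide+/+ replicate 1 (red circles). Leaving out that library moves Prlr from 0.50 to 1.21 and Socs2 from 0.02 to 0.61, while Stat5a moves from 0.12 to 0.25 and Jak2 from 0.29 to 0.28; with beta cell marker scaling in 7 libraries Socs2 is −0.05, Cish −0.48, Stat5a −0.35, Stat5b −0.59 and Jak2 −0.44, and in the model that includes the acinar share Socs2 is −0.29, Cish −0.23 and Stat5b −0.68.

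Socs2, a suppressor of cytokine signalling that STAT5 induces, showed the same arrangement of libraries as Prlr in CPM. It stood at 35.4 CPM in Ide+/+ replicate 1 and at 10.7, 11.3, 8.07 and 8.26 CPM in the other Ide+/+ libraries. The Ide-/- libraries held 15.1, 14.3 and 14.9 CPM, a tight group above the 4 and below the remaining one. With 8 libraries the log2 fold change was 0.02 (SE 0.43, 95% interval −0.91 to 0.95, adjusted p = 0.981, edgeR). Without Ide+/+ replicate 1 Socs2 was 1.52-fold higher in Ide-/- islets (log2 0.61, SE 0.16, 95% interval 0.25 to 0.96, adjusted p = 0.0196, edgeR), but the sign turned with beta cell marker scaling (−0.05, adjusted p = 0.907) and in the model that includes the acinar share (−0.29, adjusted p = 0.709). With 8 libraries the latter model gave 1.82 (adjusted p = 0.407, edgeR). The call was also lost without Ide+/+ replicate 4 (adjusted p = 0.0523, edgeR), Ide-/- replicate 1 (0.0625) or Ide-/- replicate 2 (0.0581). Per 10000 beta cell marker counts Socs2 had 1.42 to 1.71 counts in Ide-/- libraries, inside the 1.08 to 2.33 of Ide+/+ replicates 2 to 5.

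Cish, the other feedback inhibitor, did not share that arrangement. It stood at 13.6 CPM in Ide+/+ replicate 1 and at 3.89, 3.45, 3.47 and 2.90 CPM in the other Ide+/+ libraries. With Ide-/- the values were 3.51, 5.12 and 2.66 CPM. Here the Ide-/- libraries fell on both sides of Ide+/+ replicates 2 to 5, and 1 library alone was high. The log2 fold change was −0.48 (SE 0.48, 95% interval −1.54 to 0.57, adjusted p = 0.502, edgeR) with 8 libraries and 0.14 (95% interval −0.39 to 0.67, adjusted p = 0.700) with 7. Ide+/+ replicate 1 held 3.97 times the mean CPM of the other Ide+/+ libraries for Cish and 3.69 times for Socs2, or 2.58 and 2.4 times on the granule scale.

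Tph1, the tryptophan hydroxylase of peripheral tissues and the serotonin gene most strongly tied to lactogen action in islets, was detected at 12 counts in Ide+/+ replicate 1. Ide+/+ replicates 2 to 5 had 0, 2, 0 and 0 counts, and the Ide-/- libraries had 2, 0 and 0. The 12 counts amount to 0.487 CPM before scaling (exact 95% Poisson interval 0.252 to 0.851, counting error only), or 1.20 CPM after TMM. A count of 0 allows up to 3 counts, or 0.0899 to 0.42 unscaled CPM depending on the library. Before scaling, the limit of 0.42 in Ide-/- replicate 3 lies within the interval of Ide+/+ replicate 1. The TMM factors of these libraries were 1.53 and 0.41, so TMM lowers the first value, raises the second and moves them apart. With no low-count filter, edgeR put the difference at −2.59 on the log2 scale, with an SE of 1.9 (adjusted p = 0.414), and DESeq2 put it at −3.41, with an SE of 3.4 (adjusted p = 0.522), so no call was made. Mast cells also express Tph1. The 9 mast cell and platelet markers summed to 6.51 CPM in Ide+/+ replicate 1, 7.89 to 10.3 CPM in the other Ide+/+ libraries and 4.82 to 6.87 CPM in Ide-/- libraries. Of these markers Mcpt4, Cma1 and Fcer1a had 0 counts in every library. The mast cell protease Cpa3 had 4, 4, 1, 1 and 0 counts in Ide+/+ and 1, 0 and 0 in Ide-/- libraries. Its highest scaled level, 0.401 CPM in Ide+/+ replicate 1, rests on 4 counts and the TMM factor of 0.41. The sum of the 9 markers was the lowest of the Ide+/+ libraries there. The part of mast cells in the result was not tested.

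Tph2, the neuronal tryptophan hydroxylase, was low but present in every library. Its counts were 15, 15, 7, 6 and 3 in Ide+/+ libraries and 17, 15 and 9 in Ide-/- libraries. These correspond to 1.5, 0.382, 0.249, 0.353 and 0.322 CPM for Ide+/+, against 0.473, 0.610 and 0.825 CPM for Ide-/- islets. Again the Ide-/- libraries lay above Ide+/+ replicates 2 to 5 and below Ide+/+ replicate 1. The log2 fold change was 0.28 (SE 0.57, 95% interval −0.97 to 1.53, adjusted p = 0.759, edgeR), and with 7 libraries 0.87 (SE 0.37, 95% interval 0.04 to 1.69), whose unadjusted p of 0.0409 became 0.109 after adjustment. In all, 3 of the 8 tested members had every Ide-/- library above Ide+/+ replicates 2 to 5 in CPM, Prlr, Socs2 and Tph2, against 20% of all tested genes. On the granule scale this held for Prlr and Socs2, against 15.5%, and in TPM for Prlr, Stat5a, Jak2 and Tph2, against 39.5%.

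Ddc, the decarboxylase that completes serotonin synthesis, was the most abundant of the 4 serotonin genes among the 10. It stood at 136 CPM in Ide+/+ replicate 1 and at 56.4, 56.8, 50 and 42.9 CPM in the other Ide+/+ libraries, against 59.0, 51.3 and 35.9 CPM in the Ide-/- libraries. The latter spread over the whole range of Ide+/+ replicates 2 to 5 and beyond it at both ends. The log2 fold change was −0.48 (SE 0.36, 95% interval −1.28 to 0.31, adjusted p = 0.362, edgeR) with 8 libraries and −0.08 (95% interval −0.50 to 0.34, adjusted p = 0.784) with 7. Relative to granule genes Ddc was steady in Ide+/+ replicates 2 to 5, at 94.0 to 106 counts per 10000, with 98.2, 99.7 and 79.2 in Ide-/- libraries and 169 in Ide+/+ replicate 1. Relative to beta cell markers the groups did not overlap, with 9.78, 8.64, 8.36, 6.71 and 12.1 Ddc counts per 10000 marker counts in Ide+/+ and 5.54, 6.12 and 4.06 in Ide-/- libraries. With that scaling the log2 fold change was −0.80 with 8 libraries (adjusted p = 0.291, edgeR) and −0.77 with 7 (adjusted p = 0.120), and neither was called. All genes had a median of −0.51 with 8 libraries and −0.67 with 7 on that scale, so Ddc lay near a typical gene. The share of all genes without overlap on that scale was not computed.

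Htr2b, the serotonin receptor of the pregnant islet, was near the limit of detection. It had 2, 9, 7, 3 and 0 counts in Ide+/+ libraries and 15, 5 and 2 counts in Ide-/- libraries. The gene lies opposite Psmd1, which had 371 to 1645 counts, and stray reads of that gene cannot be told apart from Htr2b without the strand setting. In unscaled CPM the exact 95% Poisson intervals ran from 0.481 to 1.42 in Ide-/- replicate 1, the highest library, and from 0.123 to 0.512 in Ide+/+ replicate 2. With no low-count filter, the log2 difference was 0.58 by edgeR, with an SE of 0.66 (adjusted p = 0.577), and 0.59 by DESeq2, with an SE of 0.81 (adjusted p = 0.658).

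The order of the 10 genes was read from TPM, which corrects for transcript length. By the median over the 8 libraries Ddc (36.3 TPM) and Prlr (31.8 TPM) led, and their order changed between libraries, with Ddc above Prlr in 4 of 8. Socs2 followed at 9.19 TPM, below Prlr in 8 of 8 libraries. Stat5b came next at 1.98 TPM, above Cish at 1.33 TPM in 6 of 8 libraries. Stat5a at 0.985 TPM and Jak2 at 0.93 TPM could not be ordered, with Stat5a above Jak2 in 2 of 8 libraries. Tph2 (0.205 TPM), Htr2b (0.13 TPM) and Tph1 (0 TPM) closed the list. The transcript of the decarboxylase lay far above those of both hydroxylases that feed it, in every library.

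TPM gave other differences between genotypes than CPM. It is a share of each library, and the acinar share of the libraries is given above. Prlr had 50.2, 29.1, 26.2, 20.1 and 5.66 TPM in Ide+/+ and 72.1, 65.5 and 34.4 TPM in Ide-/- islets. On log2(TPM + 1), limma called 3 of the 8 tested members higher with all 8 libraries: Prlr (1.3, adjusted p = 0.0478), Jak2 (0.60, adjusted p = 0.031) and Ddc (0.93, adjusted p = 0.0436). In TPM none of the 8 tested members was highest in Ide+/+ replicate 1, against 1.76% of all tested genes. That scale moved the median of all genes to 0.50 and called 36.8% of them higher and 2.53% lower. Jak2 lay near that median, and Cish and Stat5b, like Ddc negative with TMM, had values of 0.35 and 0.50.

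The length that RSEM assigns to a gene is the mean over its annotated transcripts, weighted by their estimated abundance, so it moves when the mix of transcripts moves. For Prlr it was 4003, 4318, 4799, 4697 and 5232 bases in Ide+/+ libraries and 5805, 5442 and 6849 bases in Ide-/- libraries. For Ddc the order was the opposite, with 1913, 1707, 1736, 1723 and 1834 bases in Ide+/+ and 1429, 1443 and 1178 bases in Ide-/- libraries. In both genes the groups did not overlap, with Ide+/+ replicate 1 included. The same held for Socs2 (1345 to 1602 against 1622 to 1926 bases) and, over a narrow range, for Cish (2938 to 3087 against 2850 to 2893 bases), 4 of the 7 members with enough counts, against 17.7% of 8555 genes.

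None of these length differences was called by limma over 8555 genes, where 0.187% were called longer and 0.292% shorter. The log2 difference was 0.39 for Prlr (SE 0.107, adjusted p = 0.124) and −0.41 for Ddc (SE 0.0767, adjusted p = 0.0679), and without Ide+/+ replicate 1 the values were 0.34 (adjusted p = 0.163) and −0.38 (adjusted p = 0.0916). The 12 Prlr transcripts run from 564 to 9900 bases; the longest, Prlr-202, and the shorter Prlr-205 of 3836 bases are both annotated as protein coding. The deposited gene tables do not say which transcript gained. The lengths of Stat5a, Stat5b and Jak2 overlapped between genotypes (adjusted p of 0.818, 0.727 and 0.92).

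**Figure D4:**
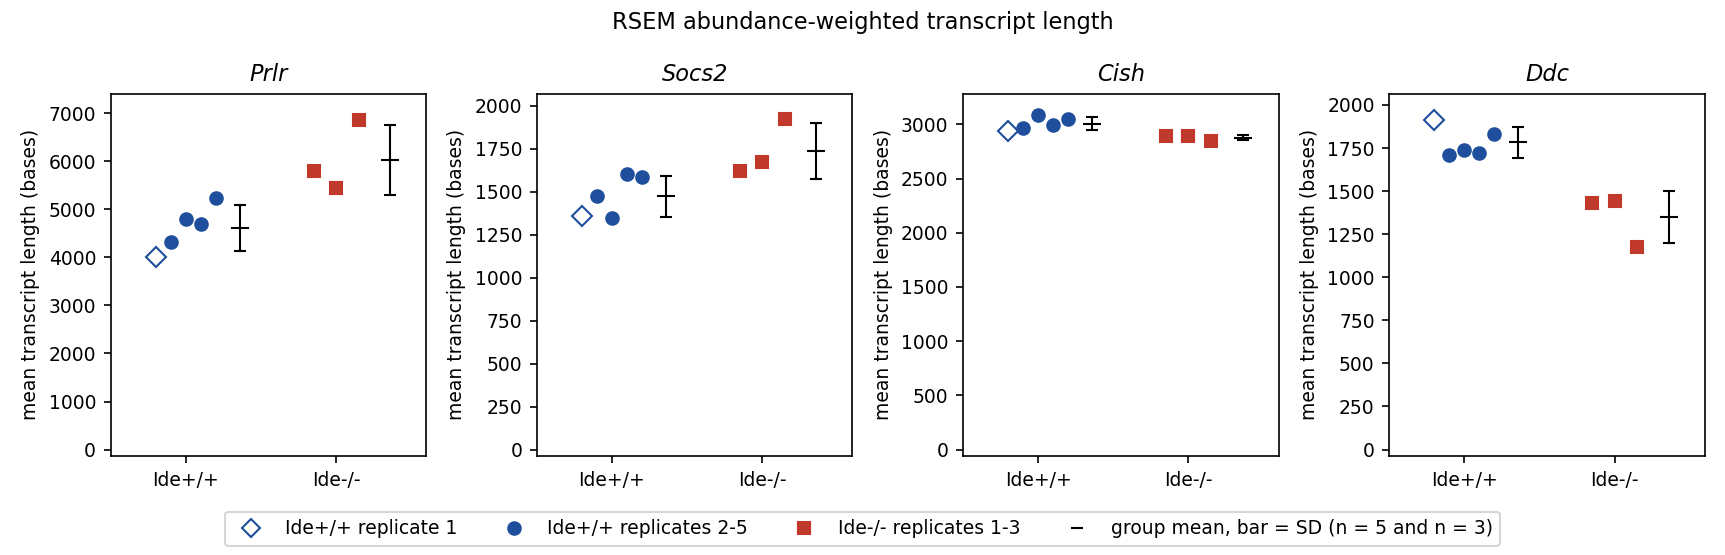
Abundance-weighted mean transcript length from RSEM, in bases on linear axes from 0, for the 4 genes whose groups did not overlap; symbols as for levels, bars are mean ± SD (n = 5 and n = 3). Prlr averages 4610 ± 470 bases in Ide+/+ and 6032 ± 730 in Ide-/- islets, Ddc 1783 ± 88 and 1350 ± 149 bases, and neither difference was called (adjusted p = 0.124 and 0.0679).

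Around the members, 22 other genes of JAK-STAT signalling and its brakes were all tested, and 0 were called higher and 3 lower in Ide-/- islets, with a median log2 fold change of −0.05 against −0.01 over all genes. The 3 of 22 stand beside 10.6% of all genes called lower, and the 4 of 22 called lower without Ide+/+ replicate 1 beside 13.3%. Stat6, the interleukin-4 factor, fell by 1.20 on the log2 scale (adjusted p = 0.00482, edgeR), Stat3, the interleukin-6 factor, by 0.83 (adjusted p = 0.0252) and the kinase Jak1 by 0.86 (adjusted p = 0.0432), all 3 with the sign turned on log2(TPM + 1), at 0.20, 0.24 and 0.18, and Jak1 also in the model that includes the acinar share, at 0.44. Stat6 stood at 6.44 to 10.0 CPM in Ide+/+ libraries and 2.66 to 4.04 CPM in Ide-/- libraries. Without Ide+/+ replicate 1 the values were −1.17 for Stat6 (adjusted p = 0.0039, edgeR), −0.77 for Stat3 (adjusted p = 0.0196) and −0.60 for Jak1 (adjusted p = 0.00974). The shared receptor chain Il6st fell by 0.72 (adjusted p = 0.00958) and the interferon gamma receptor chain Ifngr2 by 0.99 (adjusted p = 0.0117), the 2 calls among 6 tested genes of 13 ligands and JAK2-coupled receptors, and without Ide+/+ replicate 1 the values were −0.70 and −0.94 (adjusted p of 0.00364 and 0.0103). Between genotypes these 5 genes were lower where the acinar share was, and where macrophage markers were, of which 10 of 11 tested were lower, with a summed level of 329 to 611 CPM in Ide+/+ and 82.3 to 132 CPM in Ide-/- libraries. Within Ide+/+, Stat6 was highest, at 10.0 CPM, in replicate 2, with the lowest acinar share. Within the same group Jak1 was highest, at 93.6 CPM, in replicate 1, with the highest acinar share. These are single libraries for 2 of the 5 genes, and replicate 1 was the highest library in CPM for 26.8% of all tested genes. No conclusion is drawn from them. The part of acinar cells and macrophages in the result was not tested beyond the acinar covariate fit. That fit called 0 genes of both lists and, of all genes, 0.00615% higher and 0.0676% lower.

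The hormones themselves were not seen. Prl, Gh and the placental lactogens Prl3d1 and Prl3b1 had 0 counts in every library, which allows up to 0.0899 to 0.42 unscaled CPM. The growth hormone receptor Ghr, which also signals through JAK2 and STAT5, had 695 to 2545 counts per library and a log2 fold change of 0.16, or 0.31 without Ide+/+ replicate 1 (adjusted p = 0.291, edgeR).

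A list of 22 genes tied to lactogens in islets was drawn up without an expected direction for each gene. Its counts of higher and lower calls therefore do not measure a lactogen response. Of the 22 genes, 21 were tested. Of these, beside 10.4% of all genes called higher and 10.6% lower, 5 were called higher and 3 lower, with a median of 0.09. The higher calls included the mitotic cyclin Ccnb1 (log2 1.88, adjusted p = 0.000631, edgeR), the survivin gene Birc5 (log2 1.57, adjusted p = 0.00201) and, named after its values were seen, Cdkn2c, an inhibitor of cyclin-dependent kinases (log2 0.99, adjusted p = 0.0408). These values were 1.91, 1.52 and 1.17 without Ide+/+ replicate 1. Ccnb1 stood at 1.29 to 2.61 CPM in Ide+/+ and at 7.61 to 8.80 CPM in Ide-/- libraries, without overlap, and Ide+/+ replicate 1, at 2.61 CPM, lay next to Ide+/+ replicate 3, at 2.59 CPM. Among the lower calls, Igf1, a growth factor, fell by 4.21 on the log2 scale (adjusted p = 0.000997) and Ehhadh, an enzyme of peroxisomal fatty acid oxidation, by 2.45 (adjusted p = 0.00215), or −3.82 and −2.34 without Ide+/+ replicate 1. The acinar share was lower in the same libraries. The covariate fit called 0 genes of this list in either direction, beside 0.00615% of all genes higher and 0.0676% lower. Acinar share and genotype split the libraries alike, so that fit could not separate them. With Ide+/+ replicate 1 left out, 6 genes of this list were called higher and 5 lower, beside 13.4% and 13.3% of all genes. Matn2, a matrix gene named after its values were seen, joined the higher calls at 0.88 (adjusted p = 0.00345); it stood at 21.9 CPM in Ide+/+ replicate 1, 4.53 to 5.17 CPM in Ide+/+ replicates 2 to 5 and 7.81 to 10.0 CPM in Ide-/- libraries, and its value was 0.18 with beta cell marker scaling.

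Among 20 genes for the cofactor, transport and breakdown of serotonin, 15 were tested and 0 were called higher and 6 lower, beside 10.6% of all genes called lower, with a median of −0.88. Most acinar and macrophage markers, as given above, and 6 of 9 duct markers were lower in the same libraries. In the model that includes the acinar share 0 of the list were called lower, beside 0.0676% of all genes. On log2(TPM + 1) 1 of the list was called lower, beside 2.53% of all genes. Aldh2, an aldehyde dehydrogenase of the breakdown route, fell by 1.42 on the log2 scale (adjusted p = 0.000905, edgeR). Spr, which makes the hydroxylase cofactor tetrahydrobiopterin, fell by 1.21 (adjusted p = 0.00462). Slc3a2, the heavy chain of an amino acid transporter, fell by 1.48 (adjusted p = 0.00581), but was 0.20 in the model that includes the acinar share. The serotonin transporter Slc6a4 fell by 4.51 (adjusted p = 0.0062), with 55, 41, 23, 29 and 13 counts in Ide+/+ and 5, 0 and 1 counts in Ide-/- libraries. The 4 were also called without Ide+/+ replicate 1, at −1.36 for Aldh2, −1.25 for Spr, −1.28 for Slc3a2 and −3.79 for Slc6a4.

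Beside 13.3% of all genes called lower and 13.4% higher, 7 of this list were lower and 1 higher without Ide+/+ replicate 1. The latter was Slc18a1, a vesicular monoamine transporter, named after its values were seen, at 13 CPM in Ide+/+ replicate 1, 7, 6.61, 6.77 and 7.30 CPM in the other Ide+/+ libraries, against 15.5, 12.7 and 10.8 CPM with Ide-/-. Its log2 fold change was 0.92 with 7 libraries (SE 0.16, adjusted p = 0.00283, edgeR), 0.70 with 8 (adjusted p = 0.0635) and 0.20 with beta cell marker scaling (adjusted p = 0.664). Of 13 serotonin receptors other than Htr2b, 1 passed the low-count filter, Htr1b, with a log2 fold change of −0.17 that was not called, was −0.35 without Ide+/+ replicate 1 (adjusted p = 0.697, edgeR) and was 0.06 on log2(TPM + 1).

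**Figure D5:**
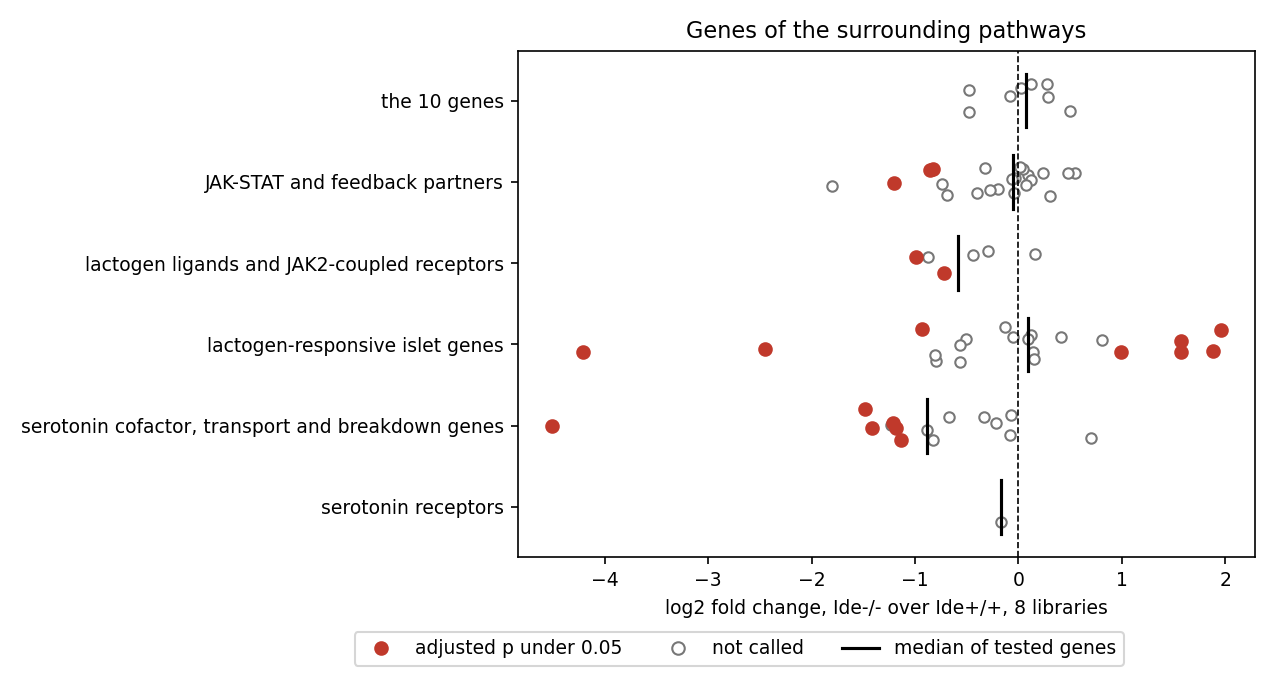
Log2 fold change (Ide-/- over Ide+/+, edgeR with TMM, 8 libraries) of each tested member and each tested gene of 5 pathway lists, filled where the adjusted p was under 0.05, with a bar at the median; vertical scatter within a list has no meaning. The 8 tested members lie between −0.48 and 0.50 with no call, and the lower calls of the serotonin cofactor, transport and breakdown list reach −4.51; Stat6, Stat3 and Jak1 are positive on log2(TPM + 1).

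The genes whose profile over the 8 libraries lay nearest to a member were sought among 8474 tested genes that averaged 5 CPM or more, by the root mean square difference of centred log2 CPM. For Prlr these were Tmigd3 (0.16), Ins1 (0.36), the gene of insulin 1, and G6pc2 (0.36), the islet glucose-6-phosphatase catalytic subunit. Ins1 and G6pc2 are beta cell markers of the scaling list. Tmigd3 stood at 12.1 CPM in Ide+/+ replicate 1, 1.72 to 4.83 CPM in the other Ide+/+ libraries and 5.41 to 9.02 CPM in Ide-/- libraries. Socs2 was the nearest member to Prlr, at 0.46 and rank 19, with Ddc at rank 560. For Cish, compared with 8475 genes, the nearest were B3galnt1, Arxes2 and Apobec1, each at 0.24, and Ddc came at rank 8 with 0.26. These profiles are a description over 8 libraries, and all share the high value of Ide+/+ replicate 1.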

How the data were processed

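Per the labels' protocols, each low-input library was built from 100 ng of RNA whose integrity number exceeded 6.5. The submitters' processing notes name STAR 2.7.1a, RSEM 1.3.1 and the build GRCm38. Per the file headers, the authors deposited 1 table per sample with an expected count (reads shared between genes are divided by a model), a TPM value and an abundance-weighted transcript length for each gene. The strand setting is not given in the sources used here.

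Symbols came from GENCODE M21, which held 55227 of 55487 identifiers. Expected counts were rounded. The comparison used edgeR 4.0.16 in R 4.3.3 (TMM, filterByExpr with a minimum count of 10 and a total of 15, robust quasi-likelihood fit, genotype as the only term), Benjamini-Hochberg adjustment over all tested genes and a threshold of 0.05. SE was derived from the log2 fold change and the F statistic. TPM was tested as log2(TPM + 1) with limma 3.58.1, which understates the change of low genes. Transcript lengths were compared on the log2 scale with limma for genes with at least 20 counts in every library. DESeq2 1.42.0, limma-voom, other filters and scalings, an acinar covariate, a replicate block and leaving out each library were the alternatives. The fit was tested on simulated counts, drawn for all libraries from a common mean profile with fold changes added to some genes. They held no acinar difference between genotypes and no library like Ide+/+ replicate 1. The simulation therefore does not show how the fit performs on data with these features.

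The members and the gene lists were chosen with earlier results of these data known, and so support nothing by their choice. Named genes were Ide, the members, up to 4 called genes of each list by smallest p, otherwise the 2 most abundant tested ones, and the 3 nearest profiles of Prlr, Cish and Tph1; Tph1 did not pass the filter and has none. The beta cell marker Ero1b had no matched identifier. The labels call the samples biological replicates but name no animals, so p-values measure the spread between these samples. Same-numbered samples of the genotypes did not deviate together (correlations of 0.05, 0.01 and −0.09), so the numbers were not taken as pairs. Depth ran from 7143424 to 33371662 counts per library.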

Additional observations from a re-analysis of the deposited data

Results flagged for a closer look

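Among 32 groups of 5 Ide+/+ values tested for a sample far from the others (Dixon's 95% criterion), 10 had one, where chance gives about 1 in 20, and 8 of the 10 were high values of Ide+/+ replicate 1. The groups are not independent, since they come from the same 5 libraries. In CPM Ide+/+ replicate 1 was also the highest of the 8 libraries for 26.8% of all tested genes. The criterion was not run over all genes, so the count does not set the named genes apart from the rest. In CPM that library had 460 of Prlr, 35.4 of Socs2, 13.6 of Cish, 1.2 of Tph1, 1.5 of Tph2 and 136 of Ddc, each far above the next Ide+/+ library. It also had 93.6 CPM of the kinase Jak1 and 5.51 CPM of the serotonin transporter Slc6a4. Ide+/+ replicate 5 was set apart for Htr2b, at 0 CPM. The mean transcript length of Jak2 was 4985 bases in Ide+/+ replicate 3, where the other 4 Ide+/+ libraries had 4947.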

How the results depend on the processing

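Prlr kept its sign in all settings run. With all 8 libraries, 0 members were called higher in every setting except log2(TPM + 1), with 3, and without Ide+/+ replicate 1, with 2 (leaving out each library gave 0 to 2). With 7 libraries the 2 higher calls became 4 on log2(TPM + 1), where 30.3% of all genes were called higher and 2.99% lower with a median of 0.43, 0 with the acinar covariate and 0 with beta cell marker scaling, and 1 to 2 when a further library was left out. Counting Ide+/+ replicates 2 and 3 as 1 sample kept 0 calls with 8 libraries and 2 with 7, though Socs2 with 8 was −0.08 and Htr1b 0.04. The alternatives on 7 libraries, the merged sample, the beta cell marker scaling and the lengths were chosen after seeing the data. The cause of the changes below was not tested.

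Socs2 with 8 libraries was −0.01 with DESeq2, −0.13 with the replicate block and −0.20 with beta cell marker scaling, which also gave Stat5a −0.25 and Jak2 −0.27 and moved the median of all genes to −0.51. The acinar covariate gave Cish 1.74 and Ddc 0.78, and granule scaling gave Stat5b 0.10 with a median of 0.11. Leaving out 1 of 8 libraries gave −0.14 to 0.61 for Socs2, −0.78 to 0.14 for Cish, −0.08 to 0.27 for Stat5a, −0.22 to 0.07 for Stat5b and −0.58 to 0.31 for Htr1b. On log2(TPM + 1) Cish was 0.35, Stat5b 0.50, Ddc 0.93 (1.01 with 7 libraries), Stat6 0.20, Stat3 0.24, Jak1 0.18 and Htr1b 0.06. The covariate gave Jak1 0.44 and Slc3a2 0.20. With 7 libraries the covariate gave Socs2 −0.29, Cish −0.23 and Stat5b −0.68, beta cell marker scaling gave Socs2 −0.05, Cish −0.48, Stat5a −0.35, Stat5b −0.59 and Jak2 −0.44, and voom gave Stat5b −0.04. Leaving out 1 of the 7 gave −0.15 to 0.30 for Cish, −0.12 to 0.18 for Stat5b and −0.24 to 0.09 for Ddc.

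For the JAK-STAT list log2(TPM + 1) gave 4 higher and 0 lower, granule scaling 1 lower, beta cell marker scaling 1 lower, the covariate 0 lower, the replicate block 1 lower and leaving out a library 1 to 4 lower. For ligands and receptors log2(TPM + 1) gave 1 higher and 0 lower, granule scaling 0 lower, beta cell marker scaling 1 lower, the covariate 0 lower, the replicate block 0 lower and leaving out a library 1 to 2 lower. For lactogen-responsive genes log2(TPM + 1) gave 10 higher, the covariate 0 higher and 0 lower, beta cell marker scaling 1 higher, the replicate block 3 higher, and leaving out a library 3 to 6 higher and 2 to 5 lower. For the serotonin list no low-count filter, voom, log2(TPM + 1) and granule scaling each gave 1 higher, leaving out a library 0 to 1 higher, log2(TPM + 1) 1 lower, the covariate 0 lower and the replicate block 3 lower. The numbers pair no samples, and the block called 0 members. Over all genes it called 465 higher and 706 lower against 1699 and 1727. The list counts are to be read beside the shares of all genes called higher and lower. These were 36.8% and 2.53% on log2(TPM + 1), 5.63% and 5.23% with granule scaling and 0.621% and 7.62% with beta cell marker scaling. The covariate gave 0.00615% and 0.0676%, the replicate block 2.86% and 4.34%, no low-count filter 5.27% and 5.89%, and voom 11% and 10.4%. Leaving out a library gave 4.07% to 13.4% higher and 4.75% to 13.3% lower.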

Other observations

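Members and markers that lay next to the described genes gave further values. Kit, a receptor tyrosine kinase that islet cells as well as mast cells express, had 53 to 236 counts in Ide+/+ and 54 to 142 counts in Ide-/- libraries. Fev is a transcription factor of serotonin neurons that is also made in islets. It had 11, 138, 79, 25 and 13 counts in Ide+/+ libraries and 23, 27 and 11 counts in Ide-/- libraries. These counts are not scaled to library size, so they do not rank Ide+/+ replicate 1, with 12 counts of Tph1, for Fev. With 8 libraries Kit and Fev were not called (adjusted p of 0.117 and 0.0601, edgeR). Without Ide+/+ replicate 1 both were called lower, Kit at −0.53 (adjusted p = 0.0451, edgeR) and Fev at −1.42 (adjusted p = 0.0237). This stands beside 13.3% of all genes called lower. The cyclins Ccnd1 and Ccnd2, which lactogens raise in islets, had 531 to 3169 and 2937 to 17866 counts in Ide+/+ and 376 to 1890 and 3401 to 14990 counts in Ide-/- libraries, and neither was called with 8 libraries. Without Ide+/+ replicate 1, Ccnd1 was called lower (log2 −0.62, adjusted p = 0.0409, edgeR), the opposite direction to Ccnb1 (1.91, adjusted p = 0.000541). Asmt, the last enzyme of melatonin synthesis, had 0 counts in every library.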
